A study of Mus musculus with 18 samples.

Results

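The 44 keratin genes of the array were followed through mouse dermal cells that had been sorted as negative for the epithelial surface protein EpCAM. A gene was a member when the platform annotation gave its probe set a single symbol made of Krt and a number, which 44 of the 18193 genes measured did. Where several probe sets carried that symbol, as for 8 members, the one that was brightest on average across all 18 arrays stood for the gene. By the tissue in which each keratin is best known, 3 members were classed as basal, 12 as suprabasal, 6 as simple and 21 as hair keratins, and 2 (Krt88 and Krt222) were left unclassed. Genes with a letter in their symbols, such as Krt6a and Krt6b, fell outside the rule.

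Keratins form the intermediate filaments of epithelial cells. Each filament is built from pairs of a type I and a type II chain, such as Krt14 with Krt5 in basal keratinocytes, Krt10 with Krt1 in the layers above, and Krt18 with Krt8 in simple epithelia. Type I genes lie in 1 cluster on chromosome 11 and type II genes in 1 cluster on chromosome 15, together with the type I gene Krt18; 22 members lie on chromosome 11 and 22 on chromosome 15. Fibroblasts, the cells the sort was meant to collect, build their filaments mainly from vimentin instead.

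There were 6 groups of 3 arrays (Affymetrix mouse expression arrays), all from untreated mice that carried the R26mTmG reporter, in which Cre turns a cell and its descendants permanently from red to green fluorescence. EPF cells were green and not red, and ENF cells red and not green, both from dorsal dermis of En1Cre; R26mTmG mice, so that the sort separates cells by descent from Engrailed-1 expressing cells and not by present expression of that gene. Oral and Cranial cells were sorted as green from Wnt1Cre; R26mTmG mice (Wnt1 marks the neural crest lineage), and Ventral and Dorsal cells as green from En1Cre; R26mTmG mice. The labels give postnatal day 56 for EPF and ENF and postnatal day 30 for the 4 other groups, called the site groups below, although the protocols put back skin at 30 days. All sorts excluded cells stained for CD31, CD45, Tie2, Tie119, EpCAM and DAPI. The labels do not say whether the 3 arrays of a group came from separate animals, so p-values measure the spread between these arrays, which may in part be technical.

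All values are deposited log2 expression values after robust multichip averaging, and a difference of 1 is a doubling of signal. A level was called above background in an array when it exceeded the 95th percentile there of 69 olfactory and vomeronasal receptor genes, which lay between 4.95 and 5.57. Where no array of a group exceeded it, the group has only a bound. The difference is then also given as at least the brighter group's mean minus the mean of a limit over the dimmer group's arrays. This limit is the percentile, or the gene's own value where that was higher. No size is given where both groups were below background. No bound is given where only 1 array of the brighter group was above background. All 10 fibroblast markers were above background in all 18 arrays, with Vim at 12.58 to 13.93 and Pdgfra at 10.71 to 13.39. Across genes, the EPF and ENF arrays correlated with each other at 0.962 to 0.988 and with the site arrays at 0.872 to 0.926, so that array set, labelled age and sort cannot be told apart between these sets. Xist, which female cells transcribe from their silenced X chromosome, set EPF 2 and ENF 1 apart, with 5.2 in EPF 2 and 4.98 in ENF 1 against 11.60 to 12.13 in the other 4 arrays of these groups. The arrays of EPF, and those of ENF, were thus not all repeats of 1 RNA sample. Whether the other 4 came from separate animals is not known. In the 12 site arrays Xist was at 10.48 to 11.48.

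In each array, 13 to 28 of the 44 keratins were above background, as were 60.1% to 66.7% of all genes. The share of keratins was close to that of all genes in ENF 2 (28 of 44, against 63.1%) and lower than it in every other array. Over all arrays, 9 members were above background in all 18 (Krt5, Krt10, Krt42, Krt78, Krt80, Krt81, Krt83, Krt84 and Krt88), 22 in some and 13 in none. The 13 in none (Krt1, Krt2, Krt7, Krt12, Krt13, Krt16, Krt18, Krt23, Krt26, Krt34, Krt82, Krt86 and Krt222) included Krt1, the partner of Krt10, and Krt18, the partner of Krt8. By the heat map of all members the family varied most in a few keratins of the epidermal basal layer and the hair follicle. These varied in the EPF and ENF arrays and hardly in the site arrays. The suprabasal Krt10 and Krt80 and the simple Krt19 and Krt20 varied as well, with ranges of 3.96, 3.10, 3.47 and 2.45 over the 18 arrays. Krt10 also ranged from 6.87 to 8.86 in the site arrays.

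**Figure D1:**
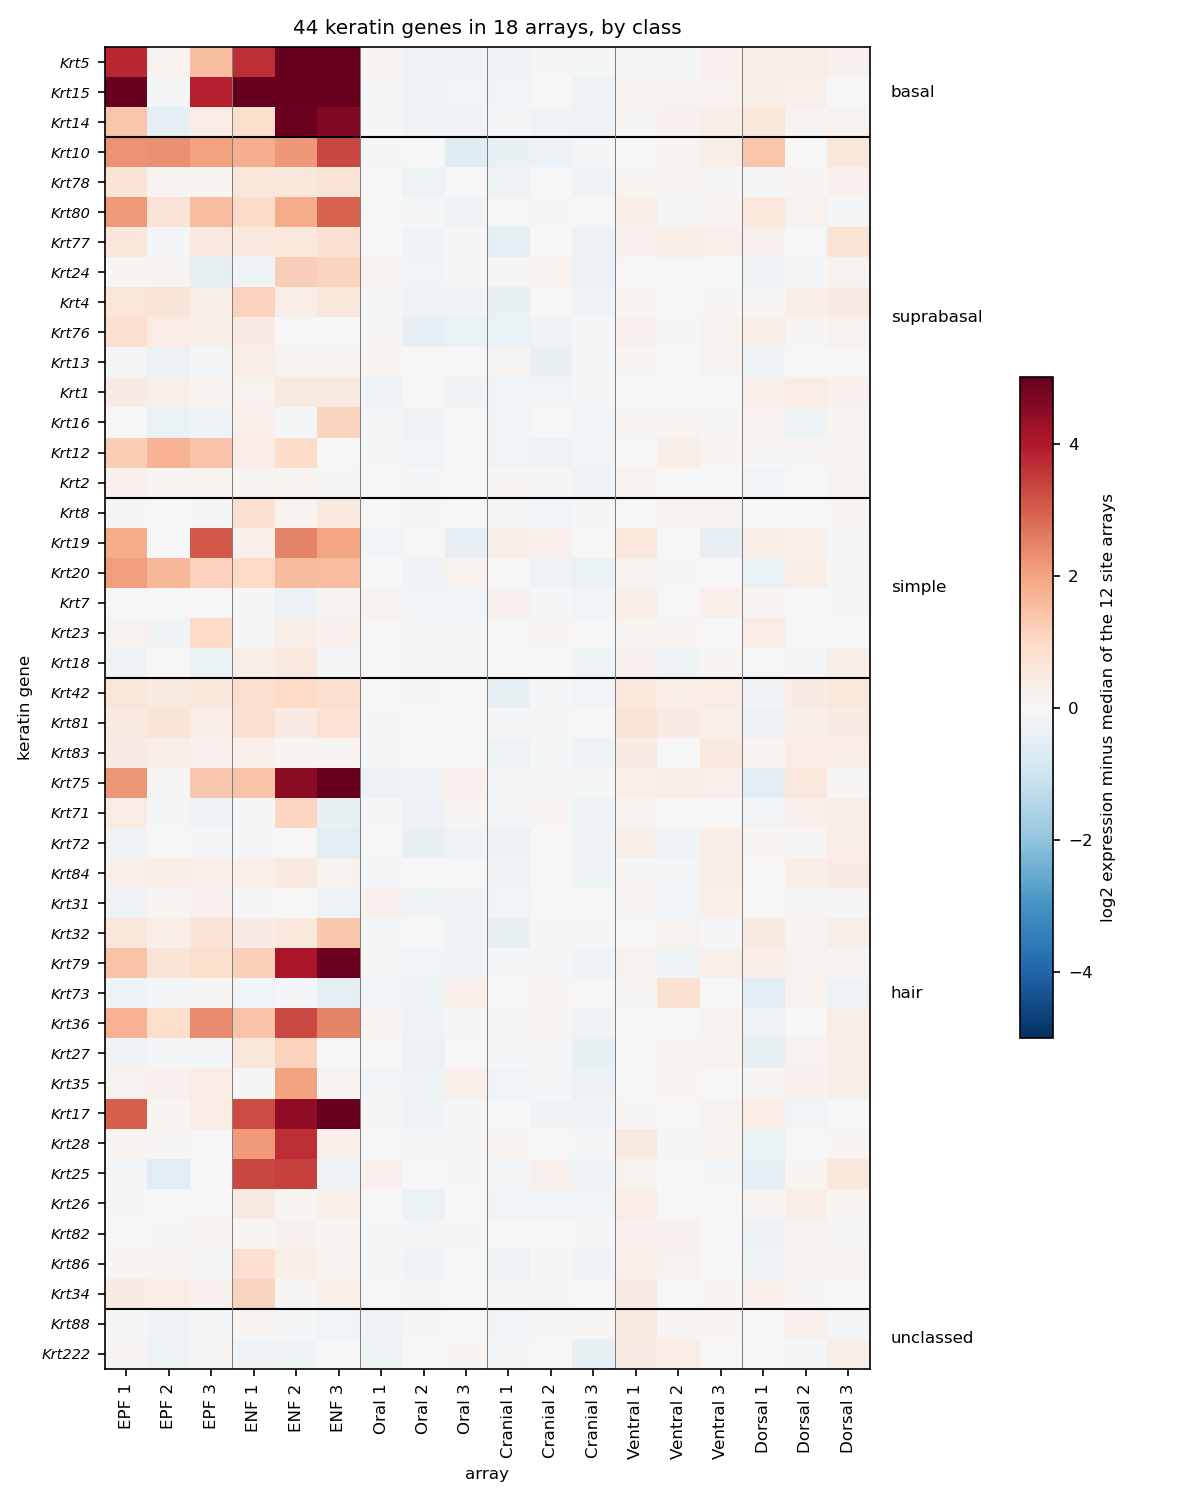
Levels of the 44 keratin genes (lines, by class) in the 18 arrays (columns), as log2 expression minus the median of the 12 site arrays for the same gene; values beyond the ends of the colour scale are drawn in the end colours. Strong colour is seen for Krt5, Krt14, Krt15, Krt17, Krt75 and Krt79 in ENF 2 and ENF 3, and for Krt25 and Krt28 in ENF 1 and ENF 2.

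Against the 12 site arrays, 16 keratins lay more than 1 log2 unit above every site array in at least 1 EPF or ENF array, and 28 did so in none; of all genes, 8.62% did so in at least 1 array. Per array, 9, 2 and 6 keratins did so in EPF 1, 2 and 3 (20.5%, 4.55% and 13.6% of the members, against 4.82%, 4.59% and 4.87% of all genes). In ENF 1, 2 and 3 the counts were 6, 14 and 11 (13.6%, 31.8% and 25% of the members, against 4.88%, 4.17% and 5.36% of all genes). EPF 2 stood at the share of all genes, and the other 5 arrays stood above it. No keratin did so in all 6 arrays. None lay more than 1 unit below every site array, where 2.4%, 1.95% and 2.09% of all genes did in EPF 1 to 3 and 2.44%, 1.64% and 2.63% in ENF 1 to 3. Within both groups the array with low Xist had the fewest such keratins. This counting was chosen after the data were seen, and it carries no test.

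The basal keratins Krt5 and Krt15 were high in all 3 ENF arrays and in EPF 1, lower in EPF 3 and at the level of the site arrays in EPF 2. Krt5, the type II chain of basal keratinocytes, was at 9.72, 6.14 and 7.43 in EPF 1 to 3 and 9.64, 11.72 and 11.34 in ENF 1 to 3, with the 12 site arrays at 5.74 to 6.27 (median 5.95). EPF 1 lay just above ENF 1, so that the groups overlap, and EPF 2 lay within the range of the site arrays. Krt14, its type I partner, was at 6.30, 4.48 and 5.29 in EPF 1 to 3 and 5.80, 9.81 and 9.54 in ENF 1 to 3, with the site arrays at 4.67 to 5.49 (median 4.92). It stood more than 1 unit above every site array in ENF 2 and ENF 3 alone. EPF 1 and ENF 1 lay above every site array by less, with ENF 1 below EPF 1.

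Krt15, a type I chain of basal cells that also marks the stem cell region of the hair follicle, varied most of all members. It was at 10.68, 3.91 and 7.91 in EPF 1 to 3 and 9.47, 11.38 and 12.19 in ENF 1 to 3, with the site arrays at 3.76 to 4.32 (median 4.02). The range within EPF, from the site level in EPF 2 to a level above ENF 1 in EPF 1, was wider than the difference between the group means. By the background measure, EPF 1 and all 3 ENF arrays had all 3 basal keratins, EPF 3 had 2 and EPF 2 had 1, and the site arrays had 1 (Krt5), or 2 in Dorsal 1. In RNA from pooled sorted cells, fewer cells of a type and less RNA per cell cannot be told apart.

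Keratins of the outer follicle layers followed a like order of arrays. These genes, and others named below outside the naming rule stated with the processing, were chosen after their values were seen. Krt17, a type I chain of the outer root sheath and of stressed epidermis, was at 6.58, 3.68 and 3.93 in EPF 1 to 3 and 6.83, 8.0 and 8.74 in ENF 1 to 3, with the site arrays at 3.38 to 3.93. Its groups did not overlap, though EPF 1 lay only just below ENF 1.

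Krt75, a type II chain of the companion layer between the outer and inner root sheaths, was at 7.61, 5.46 and 6.75 in EPF 1 to 3 and 6.84, 9.92 and 10.47 in ENF 1 to 3, with the site arrays at 4.88 to 5.94. Krt79, a type II chain of the follicle opening, was at 5.78, 5.0 and 5.21 in EPF 1 to 3 and 5.54, 8.44 and 9.27 in ENF 1 to 3, with the site arrays at 4.12 to 4.66. For both genes ENF 2 and ENF 3 were high, and ENF 1 lay within the EPF range.

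**Figure D2:**
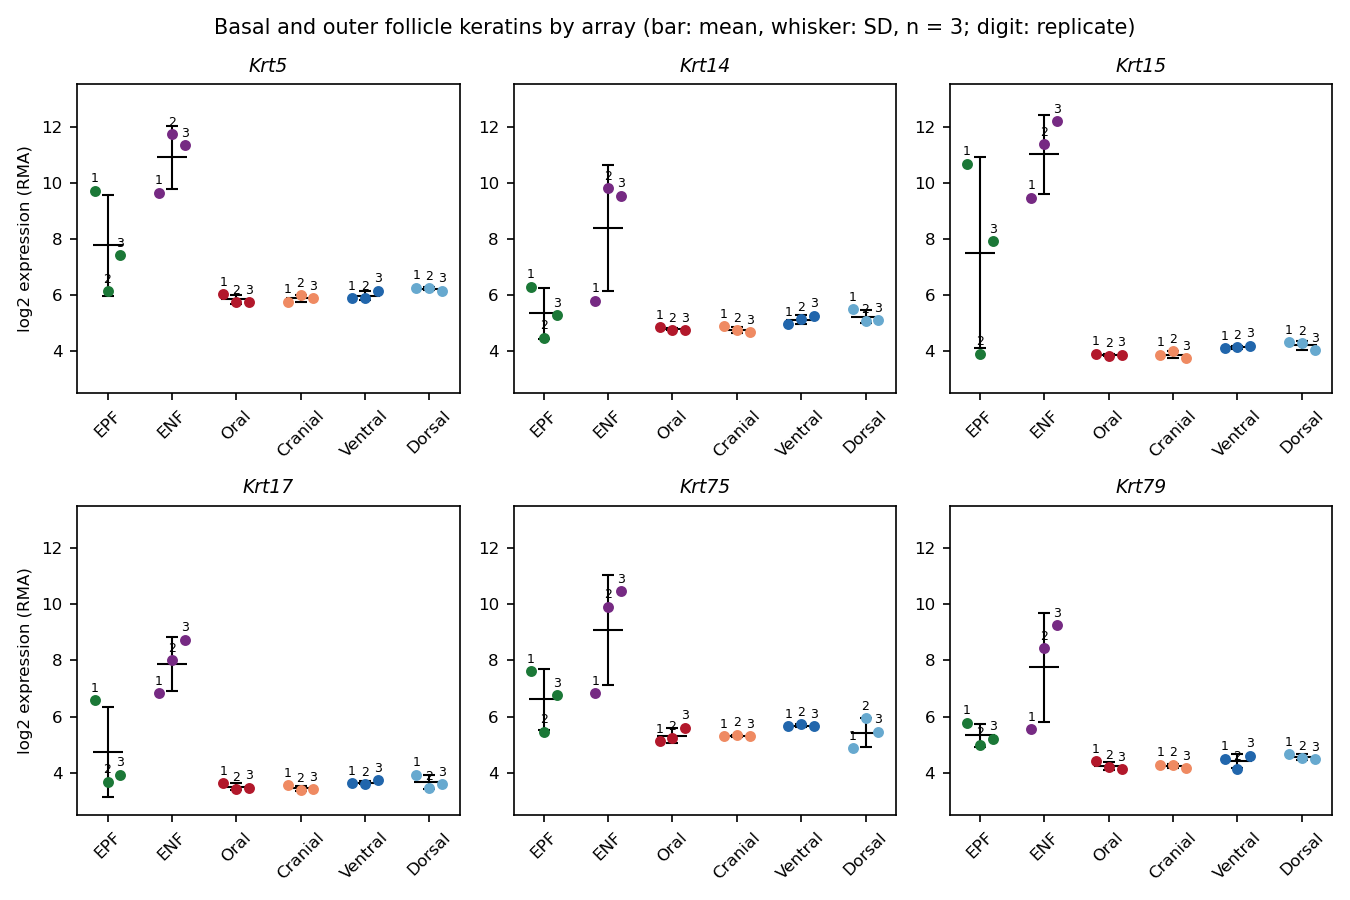
Log2 expression of 3 basal keratins (Krt5, Krt14, Krt15) and 3 outer follicle keratins (Krt17, Krt75, Krt79) in each array by group; a point is an array, the digit its replicate number, the bar the group mean and the whisker the SD (n = 3). EPF 1 reaches the level of ENF 1 for Krt5 and Krt15, EPF 2 lies with the site arrays for Krt5, Krt14, Krt15 and Krt17, and the 12 site arrays stay close together.

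The inner root sheath keratins showed another order. This sheath is the inner layer of the follicle that moulds the growing shaft, and its type I chains Krt25, Krt26, Krt27 and Krt28 are neighbours on chromosome 11. Krt25 was at 3.82, 3.39 and 3.97 in EPF 1 to 3 and 7.30, 7.36 and 3.72 in ENF 1 to 3, with the site arrays at 3.47 to 4.51. Krt28 was at 4.09, 4.04 and 4.02 in EPF 1 to 3 and 6.10, 7.69 and 4.22 in ENF 1 to 3, with the site arrays at 3.64 to 4.44. ENF 1 and ENF 2 were high for both genes, whereas ENF 3, which had the highest Krt15, Krt17, Krt75 and Krt79, lay at background.

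Krt27 was at 4.33, 4.43 and 4.40 in EPF 1 to 3 and 5.09, 5.68 and 4.48 in ENF 1 to 3, with the same order of the ENF arrays and only ENF 2 above background. Krt26, which lies between Krt25 and Krt27, stayed at 3.58 to 4.33 in all 18 arrays, below background. Of the type II chains of this sheath, Krt71 reached 6.74 in ENF 2 and was at 5.60 and 5.30 in ENF 1 and ENF 3, with 5.51 to 6.06 in EPF and 5.37 to 6.01 in the site arrays. Krt72 and Krt73 stayed between 4.54 and 6.03 in all 18 arrays.

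**Figure D3:**
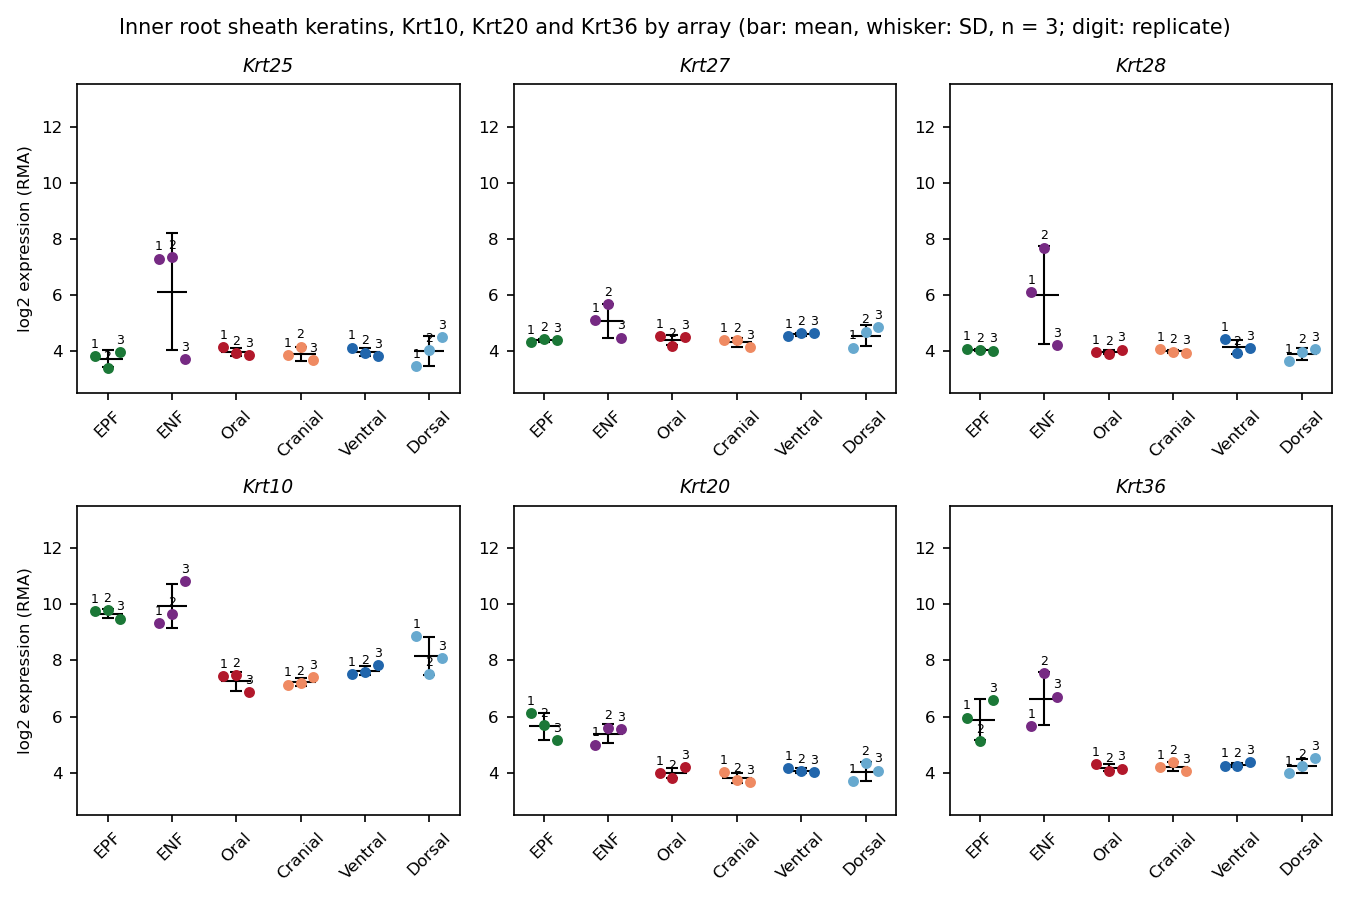
Log2 expression of 3 inner root sheath keratins (Krt25, Krt27, Krt28) and of Krt10, Krt20 and Krt36 in each array by group; a point is an array, the digit its replicate number, the bar the group mean and the whisker the SD (n = 3). ENF 1 and ENF 2 are high for Krt25 and Krt28 while ENF 3 is at the level of the site arrays, and Krt10, Krt20 and Krt36 are higher in all 6 EPF and ENF arrays than in every site array.

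The promoter windows of the inner root sheath genes Krt25, Krt27 and Krt28 are shown beside that of Krt5, which did not share their pattern over the arrays. Of the 3, Krt27 stood out least and exceeded background in ENF 2 alone. Each runs from 250 bases before to 50 bases after the gene's start, 5′ to 3′ on the gene's own strand (the minus strand for all 4), from RefSeq on build GRCm38.p6. The positions are chr15:101712856-101713155 for Krt5, chr11:99322902-99323201 for Krt25, chr11:99351069-99351368 for Krt27 and chr11:99374854-99375153 for Krt28. Capitals mark matches, on either strand, to TATAAA (the TATA box), TGANTCA (an AP-1 site) or CTTTGA (the LEF/TCF core).
Krt5: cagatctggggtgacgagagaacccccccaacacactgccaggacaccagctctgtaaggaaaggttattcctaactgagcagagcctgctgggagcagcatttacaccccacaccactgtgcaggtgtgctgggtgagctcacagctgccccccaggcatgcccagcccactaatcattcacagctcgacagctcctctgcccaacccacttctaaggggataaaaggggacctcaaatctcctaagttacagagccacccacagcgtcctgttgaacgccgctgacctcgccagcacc
Krt25: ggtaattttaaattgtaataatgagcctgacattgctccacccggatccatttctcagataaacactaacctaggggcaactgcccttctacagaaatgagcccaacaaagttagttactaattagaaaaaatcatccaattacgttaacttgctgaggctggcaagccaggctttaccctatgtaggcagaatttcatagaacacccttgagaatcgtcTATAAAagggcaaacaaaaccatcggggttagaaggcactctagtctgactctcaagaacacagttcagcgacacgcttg
Krt27: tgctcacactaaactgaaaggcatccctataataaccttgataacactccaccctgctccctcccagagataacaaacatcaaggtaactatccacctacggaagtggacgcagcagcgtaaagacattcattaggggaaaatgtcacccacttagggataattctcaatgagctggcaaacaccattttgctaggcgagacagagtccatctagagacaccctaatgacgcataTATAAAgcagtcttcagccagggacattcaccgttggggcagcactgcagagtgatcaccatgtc
Krt28: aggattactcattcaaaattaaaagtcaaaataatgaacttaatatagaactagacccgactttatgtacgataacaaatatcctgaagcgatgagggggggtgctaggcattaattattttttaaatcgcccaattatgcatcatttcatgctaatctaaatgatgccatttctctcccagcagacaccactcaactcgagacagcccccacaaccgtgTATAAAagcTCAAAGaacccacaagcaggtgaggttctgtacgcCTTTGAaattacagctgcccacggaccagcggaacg
In the windows of Krt25, Krt27 and Krt28 the TATAAA match began at position -30, -15 and -30 from the annotated start, and the Krt28 window also held 2 matches to CTTTGA. The Krt5 window held none of the 3 motifs, which says only that these letters are not in it. The RefSeq table held 32 windows for 31 member genes. TATAAA occurred in 17 of the 32 keratin windows (53.1%) and in 13.6% of all 32851 windows of the table. The keratins with it included the inner root sheath genes Krt26, Krt72 and Krt73, which did not stand out in any ENF array. TGANTCA occurred in 2 keratin windows (6.25%), both of Krt13, and in 7.81% of all windows, and CTTTGA in 6 (18.8%) and 16.0%. A match is a description of the sequence and not a binding site.

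The test of EPF against ENF asked whether the keratins differed between the green and the red cells of dorsal dermis. No keratin passed the limma test at an adjusted p under 0.05, whereas 0.308% of all genes did (0.275% higher in EPF and 0.033% lower). At an unadjusted p under 0.05, 1 of 44 was higher and 11 were lower in EPF, against 5.97% and 4.84% of all genes. The arrays of the groups did not overlap for 1 member higher in EPF (Krt12) and 8 lower in EPF (Krt8, Krt13, Krt17, Krt26, Krt27, Krt28, Krt42 and Krt86), against 8.7% and 8.34% of all genes. The median difference of the 44 was -0.26 and that of all genes 0.00.

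The differences themselves were large and their errors were large too. Krt15 averaged 7.50 ± 3.40 in EPF and 11.01 ± 1.40 in ENF (SD, n = 3 each), a difference of -3.51 ± 1.54 (SE, limma adjusted p = 0.469). For Krt5 the means were 7.76 ± 1.81 in EPF and 10.90 ± 1.11 in ENF, and the difference was -3.14 ± 0.90 (limma adjusted p = 0.257). Krt17 averaged 4.73 ± 1.60 in EPF and 7.86 ± 0.96 in ENF, a difference of -3.13 ± 0.79 (limma adjusted p = 0.195).

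For Krt14 the difference was -3.03 ± 1.02 (limma adjusted p = 0.336), and for Krt75, Krt79, Krt25 and Krt28 it lay between -2.47 and -1.95, with adjusted p of 0.354 to 0.399. No EPF array was above background for Krt25 or Krt28, which bounds these differences at 0.74 and 0.62 or more in size. None of these differences was large enough against the spread between arrays to pass the test. In the opposite direction, Krt12, a corneal keratin, was at 4.67, 5.2 and 4.88 in EPF 1 to 3 and 3.82, 4.37 and 3.44 in ENF 1 to 3. All of these values lie below background, and the gene was not called (limma adjusted p = 0.193). Its second probe set stayed at 3.08 to 3.65 in all 18 arrays and did not show the difference.

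The call of no keratin depended on which arrays were fitted. With all 18 arrays in 1 fit, Krt5, Krt14, Krt17 and Krt79 were lower and Krt12 was higher in EPF. Without ENF 3, Krt25 (adjusted p = 0.00355) and Krt28 (adjusted p = 0.0463) were lower, with 0.324% of all genes called lower. Without ENF 1, Krt14 and Krt79 were lower, with 0.176% of all genes. Without both arrays low in Xist no keratin and 4 genes in all were called.

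Probe sets of 1 gene did not always give the same picture. For Krt14, 1 other probe set was at 5.34, 4.11 and 4.57 in EPF and 4.92, 8.16 and 8.01 in ENF, the same order as the one used, and the third stayed at 3.78 to 4.55 in all 18 arrays. The second probe set of Krt17 ranged less, from 4.13 to 4.47 in EPF and 4.56 to 5.57 in ENF. Krt8 differed by -0.49 ± 0.18 on the probe set used (limma adjusted p = 0.394) and by -1.03 on another when every probe set was tested (limma adjusted p = 0.0832). Keratins of 1 type are alike in sequence, and signal shared between near copies cannot be told apart here.

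Genes that work with keratins in keratinocytes were read beside them. Of 13 desmosome genes, which anchor keratin filaments at cell contacts, 9, 4 and 8 were above background in EPF 1 to 3 and 8, 9 and 10 in ENF 1 to 3, against 5 to 7 in the site arrays. Their mean level was 6.66, 4.94 and 5.95 in EPF 1 to 3 and 6.45, 7.37 and 7.50 in ENF 1 to 3, against 5.09 to 5.51 in the site arrays. Of 19 epithelial factors and junction genes, 9, 5 and 4 were above background in EPF and 8, 15 and 13 in ENF, against 4 to 7 in the site arrays. EPF 2, with the fewest high keratins, was lowest of these 6 arrays for the desmosome genes and lay inside or below the site range in both lists by these counts.

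Single partners gave a like order of arrays. Perp, a desmosome gene of stratified epithelia, was at 11.78, 3.94 and 8.55 in EPF 1 to 3 and 9.92, 12.60 and 13.30 in ENF 1 to 3. Dsp, the desmosome protein that binds keratin filaments, was at 11.17, 3.38 and 8.13 in EPF and 9.07, 12.18 and 12.11 in ENF. Both genes thus put EPF 1 above ENF 1 and EPF 2 lowest, as Krt15 did, and neither passed the limma test between the groups (adjusted p = 0.501 for Perp and 0.534 for Dsp). Cdh1, the cadherin of epithelial contacts, was at 5.86, 3.38 and 3.56 in EPF and 4.39, 7.09 and 8.31 in ENF.

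Trp63, the transcription factor that stratified epithelia depend on, separated the groups in another way. It was at 5.12, 4.42 and 5.01 in EPF 1 to 3 and 8.61, 9.78 and 8.58 in ENF 1 to 3, with the site arrays at 3.50 to 4.13. All EPF arrays were below background and below all ENF arrays. The measured difference was -4.13 ± 0.35 (limma adjusted p = 0.00591), and against background EPF was lower by at least 3.60. EPF 1, whose basal keratins and Perp were at or above those of ENF 1, thus had Trp63 at 5.12, against 8.61 in ENF 1.

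This rests on 1 of 4 Trp63 probe sets. Of the others, 1 was at 6.68 in ENF 2 and 4.30 to 4.93 in the other 17 arrays, and 2 stayed between 3.16 and 4.27 in all 18. Averaged over the 4, the difference was -1.25 (adjusted p = 0.133), and it was -4.11 (adjusted p = 0.0866) without both arrays low in Xist. The call was also lost without EPF 2 (adjusted p = 0.0519) and without EPF 3 (adjusted p = 0.0540).

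**Figure D4:**
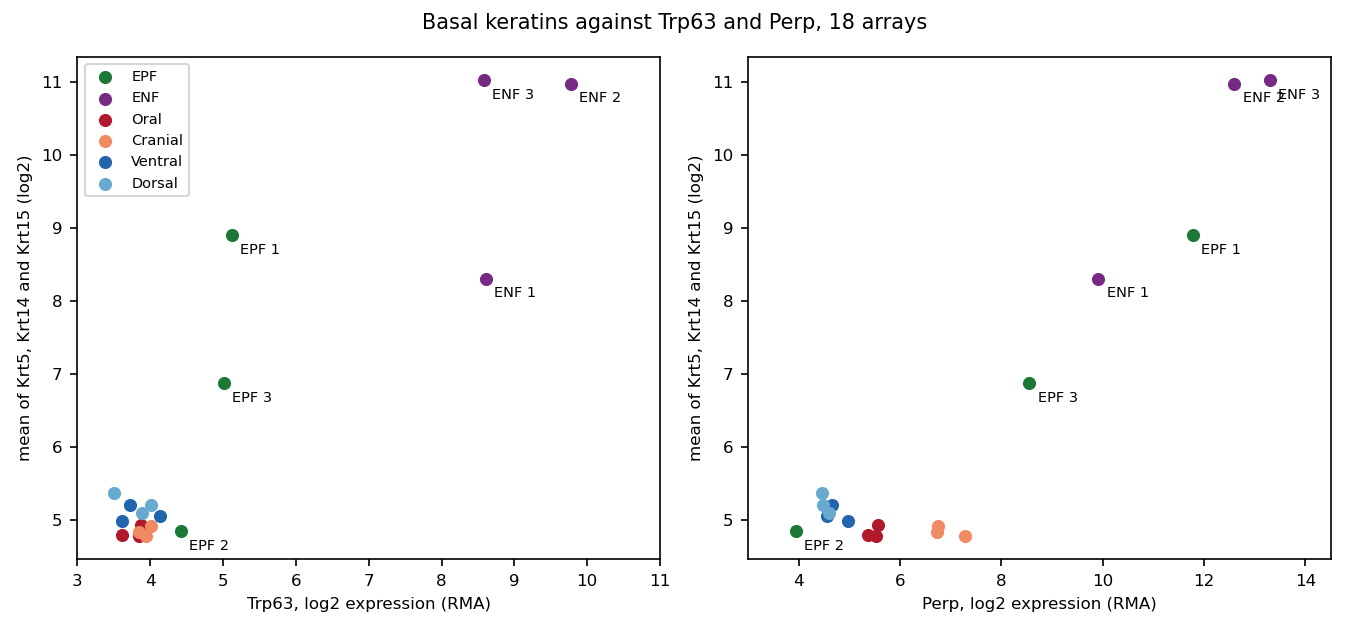
Mean log2 expression of Krt5, Krt14 and Krt15 (vertical axis) in each of the 18 arrays against the log2 expression of Trp63 (left) and of Perp (right), coloured by group. EPF 1 has a basal keratin mean of 8.90 with Trp63 at 5.12, ENF 1 has 8.30 with Trp63 at 8.61, and the site arrays and EPF 2 lie together at the low end of the basal keratin mean.

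Among the other partner lists, the test called 1 gene each of the cornified envelope and follicle lists, both lower in EPF. Lypd3, a surface protein of the layers above the basal one, was at 5.10, 4.25 and 4.65 in EPF and 6.92, 7.62 and 7.61 in ENF, a difference of -2.72 ± 0.28 (limma adjusted p = 0.0141). Lhx2, a transcription factor of follicle progenitors, was at 4.99, 3.41 and 3.64 in EPF and 6.56, 7.77 and 7.83 in ENF, a difference of -3.38 ± 0.48 (limma adjusted p = 0.0461). In both genes every EPF array lay below background and below every ENF array, lower by at least 2.00 against background for each. The call of Lypd3 was lost without EPF 2 or EPF 3 (adjusted p = 0.0722 and 0.108) and that of Lhx2 without EPF 2, EPF 3, ENF 2 or ENF 3 (adjusted p = 0.0704 to 0.235). Without both arrays low in Xist neither was called (adjusted p = 0.0654 for Lypd3 and 0.125 for Lhx2). In all, 0 of 13 desmosome, 0 of 8 hemidesmosome, 1 of 19 epithelial factor, 1 of 17 cornified envelope and 1 of 13 follicle genes passed the test, each of them lower in EPF, against 0.033% of all genes called lower. Their median differences were -0.54, -0.20, -0.72, -0.17 and -1.03, against 0.00 for all genes.

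Markers of other cells were read in the same arrays. None of the 10 fibroblast, 8 Merkel cell, 7 mesothelial, 8 endothelial or 7 leukocyte markers passed the test in EPF against ENF, while 3 of 8 mural cell markers were higher in EPF, against 0.275% of all genes. Of these, Myh11, the smooth muscle myosin gene, averaged 6.51 in EPF and 4.22 in ENF, a difference of 2.29 ± 0.17 (limma adjusted p = 0.00498). No ENF array was above background for Myh11 or Cnn1, and against background they were higher in EPF by at least 1.06 and 1.51. Acta2 and Cnn1, also smooth muscle genes, were higher by 1.67 and 2.13 (limma adjusted p = 0.0260 for both), and all 3 were higher in every EPF array than in every ENF array. Without both arrays low in Xist none of the 3 was called (adjusted p = 0.0749 for Myh11, 0.219 for Acta2 and 0.110 for Cnn1). Their part in the keratin values was not tested.

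The sort removed cells with surface EpCAM, and the 2 probe sets of Epcam disagreed on its RNA. The one with the higher mean stood at 7.47 to 9.25 in all 18 arrays. The other was at 7.40, 4.33 and 5.22 in EPF 1 to 3 and 6.42, 8.25 and 10.09 in ENF 1 to 3, and the site arrays lay at 4.26 to 6.08, with Dorsal 1 highest. On the second probe set EPF 1 lay above ENF 1 and EPF 2 was lowest, and its difference of -2.60 was not called (limma adjusted p = 0.427). What part cells of another type had in the keratin values was not tested.

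Of the suprabasal keratins, Krt10 was above background in all 18 arrays and its partner Krt1 in none. Krt10, the type I chain of the layers above the basal one, was at 9.74, 9.78 and 9.48 in EPF 1 to 3 and 9.31, 9.66 and 10.83 in ENF 1 to 3. In the site arrays it was at 6.87 to 8.86 (median 7.49), so that all 6 EPF and ENF arrays lay above all 12 site arrays, EPF 2 included. Krt1, the type II chain that pairs with it in epidermis, was at 4.37 to 4.62 in EPF and 4.41 to 4.66 in ENF, with the site arrays at 4.01 to 4.59, below background in all 18.

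Krt80, a type II chain of differentiating epithelia, was at 7.62, 6.15 and 7.07 in EPF 1 to 3 and 6.46, 7.38 and 8.44 in ENF 1 to 3, with the site arrays at 5.34 to 6.02. EPF 2 was again lowest of the 6, but still above every site array. Krt78 ranged only from 5.78 to 6.70 over the 18 arrays. Krt24 was at 6.13 and 6.0 in ENF 2 and ENF 3 and at 4.46 to 5.09 in the other 16, and Krt16 reached 4.89 in ENF 3, below background. Krt2, Krt4, Krt13, Krt76 and Krt77, keratins of upper epidermal or mucosal layers, stayed between 2.99 and 5.71 in all 18.

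For the cornified envelope list, 7, 5 and 5 of 17 genes were above background in EPF 1 to 3 and 8, 8 and 9 in ENF 1 to 3, against 3 to 6 in the site arrays. Sbsn, which encodes a secreted protein of upper epidermis, was at 12.54, 9.60 and 12.13 in EPF and 11.29, 12.10 and 13.21 in ENF, with the site arrays at 7.66 to 9.44. Flg, the filaggrin gene of the outermost living layer, stayed at 3.01 to 3.49 in all 18 arrays. Sbsn, like Krt10, was higher in EPF 2 than in every site array, and Flg, like Krt1, did not leave background.

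The simple keratins split into a pair that varied little and 2 genes that varied more. Krt8 was at 5.47, 5.46 and 5.32 in EPF and 6.17, 5.60 and 5.93 in ENF, with the site arrays at 5.28 to 5.62. Krt18, its partner, was at 3.82, 4.06 and 3.76 in EPF and 4.42, 4.59 and 4.05 in ENF, and below background in all 18 arrays (limma adjusted p = 0.422 in EPF against ENF). Krt7 and Krt23 were below background in all 18 arrays as well.

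Krt19, a type I chain of simple epithelia and of the follicle stem cell region, was at 6.79, 4.89 and 7.98 in EPF 1 to 3 and 5.18, 7.41 and 6.88 in ENF 1 to 3, with the site arrays at 4.51 to 5.44. EPF 2 and ENF 1, the arrays low in Xist, lay within the site range and the other 4 above it. The groups overlap, with a difference of 0.06 ± 0.82 (limma adjusted p = 0.988) whose sign turns when EPF 1, EPF 3 or ENF 1 is left out.

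Krt20, a type I chain of gut epithelium and of Merkel cells, was at 6.12, 5.68 and 5.15 in EPF 1 to 3 and 5.0, 5.60 and 5.55 in ENF 1 to 3, with the site arrays at 3.67 to 4.35. All 6 arrays lay above all 12 site arrays. Of 8 Merkel cell markers, Krt20 included, 3, 3 and 2 were above background in EPF 1 to 3 and 2, 4 and 2 in ENF 1 to 3, against 1 to 4 in the site arrays. Atoh1, the factor that Merkel cells need, was at 4.71 to 4.92 in EPF and 4.92 to 5.36 in ENF, below background in each of these arrays.

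Among the hair shaft keratins, Krt36, a type I chain, stood furthest from the site arrays. It was at 5.96, 5.13 and 6.59 in EPF 1 to 3 and 5.67, 7.54 and 6.71 in ENF 1 to 3, with the site arrays at 3.98 to 4.51. All 6 lay above all 12 site arrays, 5 of them by more than 1 unit. Krt35, a type I chain of the hair matrix and cuticle, was at 6.37 in ENF 2 and at 4.07 to 4.73 in the other 17 arrays. ENF 2 was thus high for Krt25, Krt28, Krt35 and Krt36, and it had the highest Gata3, a factor of the inner root sheath, at 8.62 against 6.41 in ENF 3 and 5.05 in ENF 1. Msx2, a factor of the hair matrix, was at 7.46 in ENF 2, 5.97 in ENF 1 and 5.53 in ENF 3. Gata3 did not follow Krt25 over the other ENF arrays, as Krt25 was at 7.30 in ENF 1 and 3.72 in ENF 3. Of the 13 genes of the follicle list, 8, 9 and 8 were above background in ENF 1 to 3, with mean levels of 5.73, 6.63 and 5.93.

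The 3 hair keratins with the highest means were Krt42, Krt81 and Krt83. Krt42 was at 7.99, 7.85 and 7.95 in EPF and 8.25, 8.41 and 8.20 in ENF, with the site arrays at 7.03 to 7.93. Its EPF values lay below all ENF values, with a difference of -0.36 ± 0.15 (limma adjusted p = 0.434), and its second probe set gave 0.03. Krt81 was at 6.91 to 7.21 in EPF, 6.98 to 7.37 in ENF and 6.28 to 7.19 in the site arrays, and Krt83 at 6.67 to 6.87 in EPF, 6.52 to 6.69 in ENF and 6.17 to 6.91 in the site arrays. Krt31, Krt84 and the unclassed Krt88 stayed within 5.18 to 6.88 in all 18 arrays, and Krt82, Krt86, Krt34 and the unclassed Krt222 never rose above background.

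**Figure D5:**
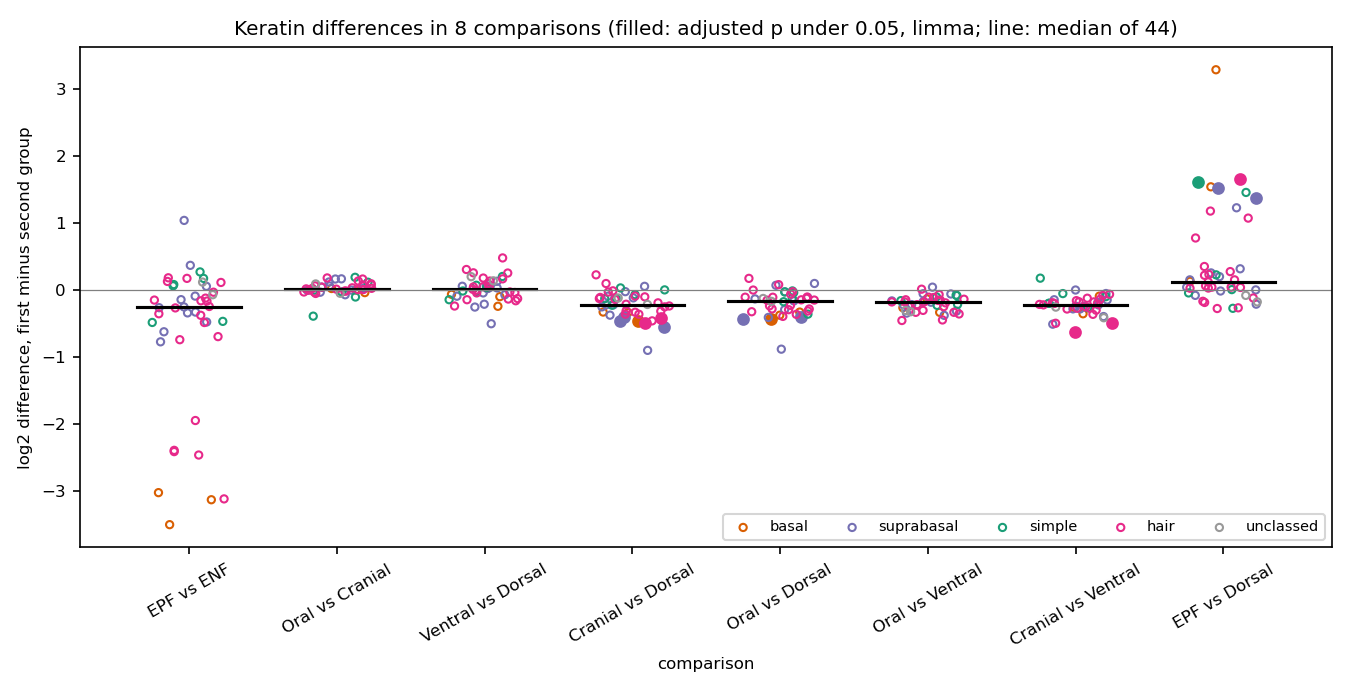
Log2 differences of the 44 keratins in 8 comparisons, first named group minus second, coloured by class; filled points have a limma adjusted p under 0.05 and the line is the median of the 44. In EPF against ENF 8 keratins of the basal and hair classes lie below -1.9 and none is filled, the site comparisons stay within 1 unit of 0, and the 4 filled points of EPF against Dorsal lie between 1.38 and 1.65.

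Between body sites most keratins had a narrow range. Of the 44, 39 had a range under 1 log2 unit over the 12 site arrays, as did 56.4% of all genes, and the median range was 0.617. In Oral against Cranial, both of neural crest descent, and in Ventral against Dorsal, both of Engrailed-1 descent, limma called no keratin, with 1.14% and 0.0275% of all genes called. At an unadjusted p under 0.05, Oral against Cranial had 0 keratins (8.28% of all genes), and Ventral against Dorsal had 1 (Krt1, lower in Ventral, as were 5.07% of all genes). With array weights Ventral against Dorsal had 1 call, with 5.23% of all genes. Oral against Ventral had 0 calls as well, with 14.6% of all genes called; unadjusted, 6 keratins and 11.1% of all genes were lower in Oral.

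A few keratins were called lower in Cranial and in Oral cells than in Dorsal cells. Cranial against Dorsal had 6 keratins lower (Krt1, Krt4, Krt14, Krt32, Krt77 and Krt83), with 7.45% of all genes called lower. Oral against Dorsal had 3 lower (Krt1, Krt4 and Krt14), with 6.3% of all genes. Cranial against Ventral had 2 lower (Krt42 and Krt83), with 6.2% of all genes. The share of keratins called lower was thus close to that of all genes in Oral against Dorsal and below it in Cranial against Ventral. It was above that of all genes in Cranial against Dorsal alone. No keratin was higher in any of the 3, where 11.2%, 10.5% and 11.7% of all genes were. The comparisons share arrays and 1 fit. Leaving out 1 of the 12 arrays at a time gave 0 (without Cranial 1) to 10 calls (without Dorsal 1) in Cranial against Dorsal and 1 to 5 (without Dorsal 1) in Oral against Dorsal. In Cranial against Ventral it gave 0 (without Cranial 1, Cranial 3, Ventral 1 or Ventral 3) to 5 (without Dorsal 1). Without Dorsal 1, 13.6%, 10.5% and 13.9% of all genes were called lower in these comparisons, and without Cranial 1 2.74% in Cranial against Dorsal.

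Krt14, the basal keratin among them, was at 4.85, 4.76 and 4.76 in Oral, 4.88, 4.75 and 4.67 in Cranial, and 5.49, 5.07 and 5.11 in Dorsal. Only Dorsal 1 of these was above background, and the differences were -0.46 ± 0.13 for Cranial (limma adjusted p = 0.0355) and -0.44 ± 0.13 for Oral (limma adjusted p = 0.0450). With Dorsal 2 and Dorsal 3 below background as well, no bound on the size of these differences is given. Of 21 alternatives, 11 ended the call for Cranial and 15 that for Oral. Krt1 was at 4.01, 4.22 and 4.04 in Oral, 4.07, 4.09 and 4.12 in Cranial, and 4.46, 4.59 and 4.44 in Dorsal. The Dorsal values lay above all Oral and Cranial values, but all are below background (limma adjusted p = 0.0141 for Cranial against Dorsal), and 3 alternatives ended that call and 2 that for Oral.

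Krt4, a keratin of oral and esophageal lining, was at 4.42, 4.34 and 4.31 in Oral, 4.15, 4.53 and 4.31 in Cranial, and 4.57, 4.87 and 4.93 in Dorsal. It was below background in all 12 site arrays, and of 21 alternatives 6 ended its call in Cranial and 11 that in Oral against Dorsal. Krt83, a type II chain of the hair cortex, was at 6.17, 6.35 and 6.18 in Cranial, against 6.85, 6.43 and 6.91 in Ventral and 6.58, 6.81 and 6.78 in Dorsal. The Cranial arrays lay below the Ventral and Dorsal arrays, by 0.50 ± 0.13 and 0.49 ± 0.13 in the group means (limma adjusted p = 0.0269 and 0.0286), calls that 5 and 6 of the 21 alternatives ended.

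Krt42 was at 7.03, 7.29 and 7.27 in Cranial and 7.93, 7.75 and 7.79 in Ventral, a difference of -0.63 ± 0.17 (limma adjusted p = 0.0266) that 6 of the 21 left uncalled. Krt32, a type I chain of the hair cuticle, was at 4.62, 5.06 and 4.93 in Cranial and 5.43, 5.15 and 5.28 in Dorsal (limma adjusted p = 0.0488). Krt77, a type II chain known from sweat gland ducts in human skin, was at 4.47, 4.94 and 4.67 in Cranial and 5.17, 4.94 and 5.63 in Dorsal (limma adjusted p = 0.0473). For both, Cranial 2 and Dorsal 2 all but met, and no Cranial array was above background. In Dorsal, only Dorsal 1 was above background for Krt32, so no bound is given. For Krt77, Dorsal 1 and Dorsal 3 were above it. The Krt77 difference was at least 0.16 against background, with Dorsal 2 entered at its value below background. Of 21 alternatives, 15 ended the call of Krt32 and 14 that of Krt77.

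Some of the genes taken as background were called as well. Of the 69 receptor genes, 7 (10.1%) were called lower in Cranial against Dorsal, 7 in Cranial against Ventral and 1 (1.45%) in Oral against Dorsal. In the first 2 of these their median differences were -0.11 and -0.12, against -0.22 and -0.22 for the keratins. Centring each array on its median moved the median of all genes in Cranial against Dorsal to -0.27, as against -0.06 as deposited, and the count of keratins called to 22, with 29.2% of all genes called lower. Fitted on the 6 arrays of Cranial and Dorsal alone, limma called none, with 2.04% of all genes called lower.

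Single partner genes gave other values between sites. In Cranial against Dorsal 1 of 13 desmosome genes (Perp) was called higher and 0 lower, with a median difference of -0.10. Of 19 epithelial factors and junction genes 1 (Cldn1) was called higher and 1 lower, with a median of -0.15. Of all genes 11.2% were called higher and 7.45% lower, with a median of -0.06. Perp was at 6.73, 6.75 and 7.28 in Cranial and 4.45, 4.48 and 4.59 in Dorsal, a difference of 2.41 ± 0.16 (limma adjusted p = 1.1e-05). Cldn1, a claudin of tight junctions, was at 5.73, 5.86 and 6.32 in Cranial and 3.54, 3.96 and 4.21 in Dorsal, a difference of 2.06 ± 0.22 (limma adjusted p = 0.000194). Both were higher in every Cranial array and below background in Dorsal, which bounds the differences at 1.71 or more for Perp and 0.76 or more for Cldn1, while Trp63 was at 3.85, 4.01 and 3.94 in Cranial and 3.50, 4.01 and 3.89 in Dorsal, below background. Dorsal 1 had Dsp at 5.92, against 3.20 to 3.69 in the other 11 site arrays, along with the highest site values of Krt10, Krt14 and Krt15.

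EPF and Dorsal are both labelled as green cells of dorsal dermis from the same mouse line, and they differ in labelled age and array set. Xist differed too, at 5.2 in EPF 2 and 10.88 to 11.33 in the Dorsal arrays, with EPF 1 and EPF 3 at 12.04 and 11.60. The parts of age, array set and Xist status cannot be told apart. Of the 44 keratins 4 were higher in EPF (Krt10, Krt12, Krt20 and Krt36), with 10.9% of all genes called higher, and none was lower, with 5.94% of all genes. The share of keratins is close to that background. Centring each array on its median gave 8.73% of all genes higher and 8.77% lower, and renewed quantile normalization 9.55% and 10.5%, with 4 keratins higher in both. The EPF arrays are those of the comparison with ENF and the Dorsal arrays those of the site comparisons.

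Krt10 averaged 9.67 ± 0.16 in EPF and 8.14 ± 0.68 in Dorsal (SD, n = 3 each), a difference of 1.52 ± 0.34 (limma adjusted p = 0.0258). For Krt36 the means were 5.89 ± 0.73 in EPF and 4.24 ± 0.27 in Dorsal, a difference of 1.65 ± 0.37 (limma adjusted p = 0.0272). Krt20 averaged 5.65 ± 0.48 in EPF and 4.04 ± 0.33 in Dorsal, a difference of 1.61 ± 0.29 (limma adjusted p = 0.0130). No Dorsal array was above background for either, and against background Krt36 was higher in EPF by at least 0.68 and Krt20 by at least 0.44. Krt12 was called (limma adjusted p = 0.00341) with all values below background, and its second probe set was at 3.17, 3.24 and 3.08 in EPF and 3.44, 3.65 and 3.44 in Dorsal, lower in every EPF array.

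The keratins that varied most over the EPF arrays were not called. Krt15, below background in Dorsal, differed by 3.29 ± 1.53 (at least 2.29 against background, limma adjusted p = 0.209) and Krt5 by 1.54 ± 0.82 (limma adjusted p = 0.272), both with EPF 2 at the Dorsal level. Without EPF 1, without EPF 3 or without Dorsal 2, the calls were 2 (Krt12 and Krt20), with 6.83%, 5.98% and 7.21% of all genes called higher. Without EPF 2 they were 5 (Krt12, Krt15, Krt19, Krt36 and Krt80), with 6.52% of all genes called higher.

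Of the partner lists, 1 of 13 desmosome, 2 of 8 hemidesmosome, 2 of 19 epithelial factor, 2 of 17 cornified envelope and 0 of 13 follicle genes were higher in EPF than in Dorsal, and none was lower, against 10.9% and 5.94% of all genes. Trp63 averaged 4.85 ± 0.38 in EPF and 3.80 ± 0.27 in Dorsal (limma adjusted p = 0.0299), with both groups below background. That call was lost without EPF 1, EPF 3 or Dorsal 2 (adjusted p = 0.0585 to 0.118), with the replicate number as a block (adjusted p = 0.0806) and in the mean of its 4 probe sets (adjusted p = 0.181). Dmkn, which encodes a secreted protein of upper epidermis, was at 10.87, 6.84 and 10.06 in EPF and 3.53, 3.41 and 3.78 in Dorsal, a difference of 5.68 ± 0.97 (limma adjusted p = 0.0101). Krtdap, named for its link to keratinocyte differentiation, was at 6.46, 5.86 and 8.06 in EPF and 4.49, 4.40 and 4.38 in Dorsal, a difference of 2.37 ± 0.53 (limma adjusted p = 0.0259). In both of these EPF 2 was the lowest EPF array and still above every Dorsal array. Dorsal was below background for both, and against background EPF was higher by at least 4.05 for Dmkn and 1.58 for Krtdap.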

How the data were processed

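Gene expression was measured in 18 samples, 6 groups of 3, grouped by their titles. The authors deposited log2 expression values, made by RMA with quantile normalization per the series' design text and processing notes; the software version is not given in the sources used here. Of 45101 probe sets, 64 are controls, 9160 had no symbol, 932 several and 34945 a single symbol, of which 34741 matched a RefSeq gene by Entrez ID. These gave 18193 genes, each represented by its brightest probe set on average. limma 3.58.1 (lmFit, eBayes, R 4.3.3) was fitted over all genes, with Benjamini-Hochberg adjustment, on the 6 arrays of EPF against ENF or Dorsal and on the 12 site arrays in 1 fit. It was tested on simulated data. The deposited log2 values carry no counts, so depth is unknown and the number of arrays limits precision. Python 3.11.15 and pandas 2.3.3 were used elsewhere.

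Values by array are given for keratins called in any comparison, the 3 with the highest mean per class, the pairs Krt5 with Krt14, Krt1 with Krt10 and Krt8 with Krt18, up to 2 called partners per list and direction, and Trp63, Epcam, Cdh1, Perp, Vim and Pdgfra. The members and lists were chosen with earlier results of these data known. Alternatives covered the block by replicate number, the arrays fitted, array weights, the variance prior, dim genes, probe sets, normalization and leaving out each array; leaving out both arrays low in Xist was added after seeing the data.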

Additional observations from a re-analysis of the deposited data

How the results depend on the processing

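In Oral against Cranial no keratin was called under any of the 22 alternatives. The other counts moved. The share of all genes called lower in the same fit stands in brackets. With all 18 arrays in 1 fit, 5 keratins were called in EPF against ENF (1.06%, with 1.47% higher), 2 in Cranial against Dorsal (5.77%) and 1 in Oral against Dorsal (5.21%). Array weights gave 1 in Ventral against Dorsal (2.8%), 22 in Cranial against Dorsal (28.7%), 19 in Oral against Dorsal (22.3%), 9 in Oral against Ventral (16.6%) and 14 in Cranial against Ventral (23.3%, with 25.4% higher), 1 of them higher. Centring on the medians gave 22 (29.2%), 19 (22.2%), 12 (15.5%) and 22 (24.9%) in the last 4 of these, and the 6 arrays of each pair alone gave 0 (2.04%), 0 (1.87%), 3 (8.27%) and 7 (15.3%). Renewed quantile normalization gave 5 (9.58%), 4 (8.23%) and 6 (10.6%) in Oral against Dorsal, Oral against Ventral and Cranial against Ventral, and without dim genes Oral against Dorsal had 1 (7.5%). Counts as reported were 0, 0, 6, 3, 0 and 2 in EPF against ENF, Ventral against Dorsal, Cranial against Dorsal, Oral against Dorsal, Oral against Ventral and Cranial against Ventral. The cause was not tested.

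Leaving out 1 array at a time, the counts ranged from 0 to 2 in EPF against ENF, 0 to 10 in Cranial against Dorsal, 1 to 5 in Oral against Dorsal, 0 to 3 in Oral against Ventral, 0 to 5 in Cranial against Ventral and 2 to 5 in EPF against Dorsal. In Cranial against Dorsal the count was 0 without Cranial 1 and 1 without Cranial 3, with 2.74% and 3.51% of all genes called lower. Counts were highest without Dorsal 1 in these 4 site comparisons, with 13.6%, 10.5%, 9.19% and 13.9% of all genes called lower in the order given. The 2 calls in EPF against ENF came without ENF 1 (0.176% of all genes lower) or ENF 3 (0.324%). The 5 calls in EPF against Dorsal came without EPF 2 (6.52% of all genes higher). In EPF against ENF, differences that did not pass the test changed sign when 1 array was left out for Krt19 (range -0.65 to 0.89, below 0 without EPF 1, EPF 3 or ENF 1), Krt4 (-0.32 to 0.092), Krt10 (-0.57 to 0.18), Krt32 (-0.42 to 0.048) and Krt80 (-0.96 to 0.029), and without both arrays low in Xist for Krt4 (0.027).

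The labels do not say what the replicate numbers mean, and same-numbered EPF and ENF arrays did not deviate together (correlations of -0.08 to -0.11), so the numbers are not treated as pairs. With the number as a block, 0 keratins were called in EPF against ENF (0.011%), 2 in Cranial against Dorsal (6.17%), 1 in Oral against Dorsal (5.4%) and 1 in Cranial against Ventral (4.58%), and 4 in EPF against Dorsal (8.48% of all genes called higher). Trp63 (adjusted p = 0.0517), Lypd3 (0.0801) and Lhx2 (0.159) were not called in EPF against ENF with this block.

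Most keratin differences between sites lie near or below background, where signal over background limits what can be read. With 3 arrays a group and wide spread within EPF and ENF, a missed threshold does not show equal levels.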

Other observations

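Outside the membership rule, Krt6a, a type II keratin of the companion layer and of stressed epidermis, varied widely over the EPF and ENF arrays. It was at 12.04, 4.70 and 7.93 in EPF 1 to 3 and 5.46, 11.61 and 12.86 in ENF 1 to 3, with the site arrays at 4.85 to 5.51. EPF 1 lay between ENF 2 and ENF 3, while ENF 1 and EPF 2, the arrays low in Xist, lay at or near the site level. These values are from the brightest of its probe sets, whose difference of -1.75 in EPF against ENF was not called (limma adjusted p = 0.845). On another probe set ENF 1, at 6.02, lay above the site arrays (5.08 to 5.63), and EPF 2, at 5.62, did not. On a further one ENF 1 and EPF 2 were at 3.07 and 3.19, with the site arrays at 3.08 to 3.57. Krt6b stayed at 4.07 to 4.87 in all 18 arrays.

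Of 14 other intermediate filament genes, none was called in EPF against ENF, with 0.308% of all genes called. At an unadjusted p under 0.05 (limma), 1 was higher and 1 lower, against 5.97% and 4.84% of all genes. In EPF against Dorsal 2 were called higher and 0 lower, with 10.9% and 5.94% of all genes, so that the share called higher is close to background. Unadjusted, 3 were higher and 3 lower in EPF than in Dorsal, against 17.2% and 12.6% of all genes. Synm, which encodes synemin, a partner of desmin and vimentin, was at 8.05, 7.53 and 7.92 in EPF and 6.96, 7.76 and 7.68 in ENF, with the site arrays at 3.48 to 5.23. It was high in EPF 2 as in EPF 1, unlike the basal keratins, and its difference from Dorsal, where it was below background, was 3.82 ± 0.19 (limma adjusted p = 0.000112) and at least 2.62 against background. Des, the desmin gene of muscle and vessel walls, averaged 7.68 ± 0.27 in EPF and 6.46 ± 0.13 in Dorsal (SD, n = 3 each), a difference of 1.22 ± 0.19 (limma adjusted p = 0.00679).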
